A study of Mus musculus with 12 samples.

Results

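The comparison set thymic T-cell acute lymphoblastic leukaemia (T-ALL) of LN3 mice against normal thymocytes, gene by gene. It used the 6 thymus libraries of the 12 in the study, chosen by their names in the deposited count table: LN3 thymus 1, 2 and 3 and WT thymocytes 1, 2 and 3. LN3 thymus held T-ALL cells of LN3 transgenic C57BL/6 mice that were overtly sick, and WT thymocytes were all thymus cells of wild-type C57BL/6 mice without tumours. Both were freed from the organ by mechanical dissociation on ice, with no sort for leukaemic cells or for a thymocyte stage. The labels give neither the transgenes and their promoters nor the ages, nor whether each library stands for 1 mouse. The titles number the thymus and spleen libraries of LN3 mice by the same leukaemias, 1 to 3, and whether same-numbered libraries share a leukaemia was not tested. The p-values are set against the spread between the libraries of a group alone, which may in part be technical. The other 6 libraries, from LN3 spleen and from spleen CD8 T cells of wild-type mice, also entered the filter that decided which genes were tested, 20897 with them and 17790 with the thymus libraries alone, and the estimate of each gene's spread. The scaling factors were also computed over all 12 libraries. The spleen libraries further entered the comparison of thymus with spleen near the end, and otherwise gave only side values, named as such.

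T-ALL is a cancer of immature T-lineage cells that often starts in the thymus. In a normal thymus, progenitors without CD4 and CD8 rearrange the T-cell receptor beta, gamma and delta genes, and cells with a working beta chain divide, take on both co-receptors and rearrange the alpha gene. Most normal thymocytes are therefore double-positive cells, and they are chosen by signals through the receptor that raise genes of the NF-kB, Egr and Nr4a families. Beside Notch1 and Myc, which drive growth in most T-ALL, Wnt, Hedgehog, PI3K, metabolic and cell-cycle inhibitor genes are known to change in this disease.

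Levels are given as CPM, the read count scaled to a common library size with TMM factors, which make the bulk of genes equal between libraries, and each mean is given with the SD of its 3 libraries. Total counts were 16229176 to 37273890 in LN3 thymus and 12694571 to 13592535 in WT thymocytes, and a count of 3, the floor used for genes without a count, was 0.0844 to 0.258 CPM. The share of counts on CT010467.1, annotated as ribosomal RNA, split the libraries across the groups. It was 0.44%, 10.51% and 4.61% in LN3 thymus 1, 2 and 3 and 1.15%, 0.777% and 5.11% in WT thymocytes 1, 2 and 3. Results were therefore also taken within the libraries under 2% (LN3 thymus 1, WT thymocytes 1 and 2) and within those of 2% or more (LN3 thymus 2 and 3, WT thymocyte 3), a split chosen after seeing the data. The labelled T-lineage identity held in both groups: of 12 genes that mark T-lineage cells, 1 was lower and 11 did not pass the test, and their summed level was 4723 to 7509 CPM in LN3 thymus and 6101 to 8983 CPM in WT thymocytes. Cd3e, a chain of the receptor complex, was at 627, 937 and 589 CPM in LN3 thymus 1, 2 and 3 and at 417, 394 and 733 CPM in WT thymocytes (log2 difference 0.48, SE 0.32, adjusted p = 0.397). No library had a count of Hoxd13, and Lmo2 (log2 difference 1.26, adjusted p = 0.413), Nup98 (log2 difference 0.20, adjusted p = 0.587) and the pre-T-cell receptor chain Ptcra (log2 difference 0.21, adjusted p = 0.902) did not pass the test. In the same fit Notch1 was 5.15-fold higher and Myc 4.62-fold higher, Cd4 fell by 4.71 and Cd8a by 2.64 on the log2 scale.

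Of 20897 genes tested with edgeR's quasi-likelihood test, 1266 (6.06%) were higher and 1088 (5.21%) lower in LN3 thymus at a Benjamini-Hochberg adjusted p below 0.05, together 11.3%. These shares are the background for every list below, and the median log2 difference over all genes tested was −0.04. Of the called genes, 1185 were at least 2-fold higher and 999 at least 2-fold lower, and in 2319 the 3 LN3 libraries did not overlap the 3 WT libraries. Over all genes tested, LN3 thymus lay above WT thymocytes without overlap in 3005 (14.4%) and below in 2680 (12.8%). The split between higher and lower calls rested on the scaling: with library totals in place of TMM factors it was 1021 higher and 1647 lower, and with upper-quartile factors 1095 and 1563. The median over all genes shifted by −0.20 and −0.17 on the log2 scale under these scalings, and list medians below are read against the median of all genes. Without WT thymocyte 1, 562 genes were higher and 641 lower, and without WT thymocyte 3, 1651 and 1085.

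The promoters of 4 of the genes with the largest rises are shown first, because these genes had few or no counts in normal thymocytes and are among the 12 largest rises in T-ALL. Each run gives the 250 bases before the transcription start, 5′ to 3′ on the gene's strand, from RefSeq on GRCm38.p6: Vgll1 at chrX:57087856-57088105 (+), Iltifb at chr10:118295039-118295288 (−), Lmcd1 at chr6:112273508-112273757 (+) and Filip1 at chr9:80012852-80013101 (−). Capitals mark TGGGAA or its reverse complement, the core letters that the Notch factor RBPJ binds.
Vgll1: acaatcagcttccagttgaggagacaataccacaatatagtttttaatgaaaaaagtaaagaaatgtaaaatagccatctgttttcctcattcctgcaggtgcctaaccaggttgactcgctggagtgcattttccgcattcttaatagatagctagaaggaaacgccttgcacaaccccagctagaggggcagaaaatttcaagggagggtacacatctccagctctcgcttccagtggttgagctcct
Iltifb: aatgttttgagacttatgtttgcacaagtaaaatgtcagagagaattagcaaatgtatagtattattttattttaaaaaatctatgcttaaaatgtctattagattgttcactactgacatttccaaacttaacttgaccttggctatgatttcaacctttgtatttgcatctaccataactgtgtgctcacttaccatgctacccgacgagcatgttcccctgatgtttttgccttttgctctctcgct
Lmcd1: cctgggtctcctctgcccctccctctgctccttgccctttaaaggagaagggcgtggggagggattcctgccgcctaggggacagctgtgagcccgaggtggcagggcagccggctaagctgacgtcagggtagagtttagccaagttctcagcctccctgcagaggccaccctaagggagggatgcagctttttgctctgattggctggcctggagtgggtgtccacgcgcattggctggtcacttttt
Filip1: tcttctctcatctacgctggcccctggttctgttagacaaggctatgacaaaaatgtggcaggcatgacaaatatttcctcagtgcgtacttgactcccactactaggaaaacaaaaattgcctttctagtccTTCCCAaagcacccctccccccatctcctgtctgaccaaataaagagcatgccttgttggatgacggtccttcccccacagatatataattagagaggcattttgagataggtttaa

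Both strands were searched from 250 bases before to 50 after the start. Of these 4 promoters, only that of Filip1 held TGGGAA, 117 bases before the start, and none held the E-box CACGTG that Myc and related factors bind. TGGGAA was in 25.6% of all 32851 promoters of that length and CACGTG in 7.15%. Among genes tested here with a matched promoter, TGGGAA was in 26.3% of the 875 higher genes, 21.5% of the 725 lower genes and 23.7% of all 12773, and CACGTG in 10.6%, 9.1% and 9.35%. These are shares of letters in a window and say nothing of binding.

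The largest rises went to genes that normal thymocytes scarcely expressed. Vgll1, a cofactor of TEAD transcription factors (chromosome X, 57088106 to 57106540 on GRCm38), was at 1.59, 168 and 98.6 CPM in LN3 thymus 1, 2 and 3 and had no count in WT thymocytes. Its mean of 89.3 ± 83.4 CPM was at least 416-fold higher than the floor of 3 counts per library (log2 difference 13.99, SE 2.76, adjusted p = 0.0111). LN3 thymus 1 was far below LN3 thymus 2 and 3, and the call did not hold without the filter on low counts (adjusted p = 0.0784) and in a fit of the thymus libraries alone (0.0762). Tead1, the DNA-binding partner of such cofactors (chromosome 7, 112679318 to 112906807), was high in all 3 leukaemias, at 144, 80.0 and 118 CPM, and at 0.81, 0.98 and 0.344 CPM in WT thymocytes (155-fold; log2 difference 7.28, SE 0.47, adjusted p = 3.64e-06).

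Surface and secreted proteins made up much of the rest. Rgma, a membrane-anchored co-receptor for bone morphogenetic proteins and ligand of neogenin (chromosome 7, 73375509 to 73419899), was at 102, 98.5 and 47.9 CPM against 0.202, 0.0612 and 0.0859 CPM (675-fold; log2 difference 9.4, SE 0.60, adjusted p = 3.44e-06). Pdgfrb, a receptor for platelet-derived growth factor best known from pericytes and fibroblasts (chromosome 18, 61045150 to 61085061), reached 471, 759 and 662 CPM, against 5.74, 5.08 and 8.5 CPM in WT thymocytes (98.2-fold; log2 difference 6.62, SE 0.44, adjusted p = 5.00e-06). The 3 leukaemias were within 2-fold of each other for Pdgfrb. Mpzl2, an adhesion protein of thymic and other epithelia, was at 480.0, 309 and 264 CPM against 3.91, 6.92 and 5.15 CPM (log2 difference 6.04, SE 0.34, adjusted p = 2.36e-06). The complement-regulating membrane protein Susd4 rose from 0.536 ± 0.411 to 130.3 ± 54.8 CPM (log2 difference 7.98, adjusted p = 7.78e-05), the sugar-binding protein Lgals7 from 0.362 ± 0.314 to 75.3 ± 18.6 CPM (log2 difference 7.77, adjusted p = 2.04e-05) and the fibrillar collagen chain Col5a1 from 0.781 ± 0.926 to 94.2 ± 17 CPM (log2 difference 7.0, adjusted p = 0.000806). Iltifb, a near-identical copy of the interleukin-22 gene, was at 16.7, 11.7 and 6.52 CPM with no count in WT thymocytes, at least 54.2-fold above the floor (log2 difference 11.05, adjusted p = 0.00498), and the division of reads between the copies is uncertain.

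Transcription and cytoskeletal genes showed the same step. Sall3, a zinc-finger transcription factor of development, was at 70.8, 98.2 and 113 CPM against 0.0675, 0 and 0.258 CPM (log2 difference 9.86, adjusted p = 3.77e-05). Lmcd1, a LIM-domain cofactor that binds GATA proteins, was at 57.9, 152 and 73.1 CPM against 0.0675, 0.0612 and 0.344 CPM (log2 difference 9.31, adjusted p = 1.63e-05). Amotl1, a junction protein of the angiomotin family that binds the cofactor YAP, was at 67.7, 84.9 and 92.4 CPM against 1.55, 1.29 and 1.89 CPM (log2 difference 5.7, SE 0.39, adjusted p = 5.15e-06). In all 3 genes every LN3 library was far above every WT library, though the choice of genes already required no overlap.

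Espnl, an actin-binding relative of espin, rose from 1.5 ± 0.372 to 88.7 ± 12 CPM (log2 difference 5.89, adjusted p = 2.97e-06). Filip1, a filamin-interacting protein, was at 15.6, 21 and 26.9 CPM in LN3 thymus and had 2 counts in all WT thymocytes, a ratio of 474 (95% counting interval 131 to 3920), and the zinc-finger gene Zfp13 was at 7.8, 13 and 9.81 CPM with 3 WT counts, a ratio of 138 (95% counting interval 47 to 671). The dopamine receptor gene Drd5 varied most among the leukaemias after Vgll1, at 8.81, 21.3 and 1.1 CPM, against 1 WT count in all, a ratio of 303 (95% counting interval 54.2 to 12000).

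**Figure D1:**
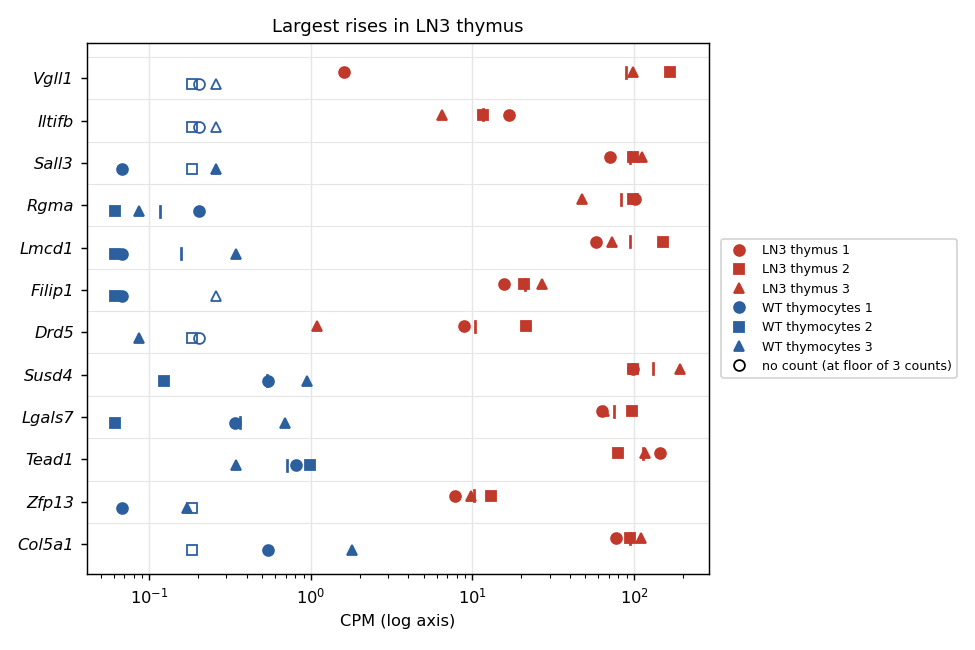
Levels of the 12 genes with the largest rises, in CPM on a log axis, 1 point per library (red LN3 thymus, blue WT thymocytes; the marker shape gives the library number) with the group mean as a vertical tick, left out where a library has no count; open points stand at the floor of 3 counts. All red points lie to the right of all blue points, which the choice of genes without overlap required. LN3 thymus 1 at 1.59 CPM for Vgll1 and LN3 thymus 3 at 1.1 CPM for Drd5 are closest to the blue points.

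The largest falls were in genes that every WT thymocyte library expressed. Trdc, the constant region of the receptor delta chain (chromosome 14, 54142851 to 54148868), was at 75.1, 79.6 and 78.4 CPM in WT thymocytes 1, 2 and 3 and at 0.378, 0.578 and 0.0562 CPM in LN3 thymus (log2 difference −8.04, SE 1.11, adjusted p = 0.000748). Gpc2, a cell-surface heparan sulphate proteoglycan (chromosome 5, 138273655 to 138280005), fell from 19.4 ± 3.71 to 0.0924 ± 0.0689 CPM (log2 difference −7.89, adjusted p = 0.000438), and Bahcc1, a chromatin protein with a BAH domain (chromosome 11, 120232947 to 120292296), from 48.7 ± 8.48 to 0.396 ± 0.308 CPM (log2 difference −6.85, adjusted p = 0.000184). The 3 WT libraries lay close together for these genes, within 1.5-fold of each other.

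Several of the lost genes act at the membrane or the cytoskeleton. Fgf13, an intracellular fibroblast growth factor homologue that binds sodium channels (chromosome X, 59062145 to 59568071), was at 19.2, 27.3 and 33.4 CPM in WT thymocytes and 0.503, 0.165 and 0.141 CPM in LN3 thymus (log2 difference −6.58, SE 0.63, adjusted p = 6.14e-05). Marcks, an actin-regulating substrate of protein kinase C, fell from 196 ± 25.9 to 6.08 ± 4.18 CPM (log2 difference −5.0, adjusted p = 0.00245), Arhgef11, an activator of the GTPase RhoA, from 61.4 ± 15.5 to 1.82 ± 1.06 CPM (log2 difference −5.04, adjusted p = 0.000147), and S100a10, the annexin A2 partner, from 56.5 ± 28.2 to 1.44 ± 0.989 CPM (log2 difference −5.35, adjusted p = 0.00121). Slc6a19, a sodium-driven carrier of neutral amino acids, fell from 101 ± 38.8 to 1.74 ± 0.969 CPM (log2 difference −5.83, adjusted p = 0.000184).

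The neighbouring armadillo-repeat genes Armcx2 and Armcx3 on the X chromosome fell together, from 26.5 ± 9.4 to 0.402 ± 0.351 CPM (log2 difference −6.13, adjusted p = 0.000438) and from 20.2 ± 2.16 to 0.602 ± 0.735 CPM (log2 difference −4.97, adjusted p = 0.0023). Lca5, a cilium protein gene, fell from 12.4 ± 2.6 to 0.158 ± 0.137 CPM (log2 difference −6.3, adjusted p = 0.00094). Among the falls with the smallest p were Lypd6b (a Ly6-type membrane protein; 20.8, 19.4 and 19.7 CPM in WT thymocytes and 0.671, 1.07 and 1.15 CPM in LN3 thymus), the zinc-finger gene Zfp827 (16.3, 18.1 and 24.6 and 1.17, 1.07 and 1.29 CPM) and the interferon-responsive gene Epsti1 (81, 75.2 and 83.2 and 4.11, 7.68 and 4.67 CPM). Their log2 differences were −4.36, −4.04 and −3.88, with adjusted p of 4.69e-05, 3.44e-05 and 3.77e-05. The transporter gene Abcg3 fell by 3.01 (adjusted p = 9.31e-05).

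**Figure D2:**
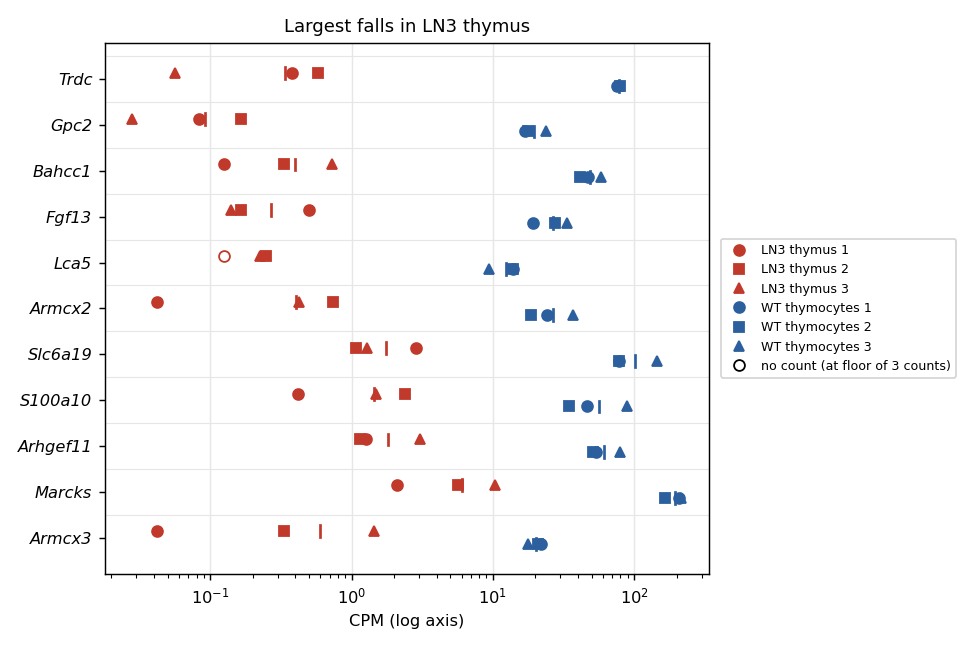
Levels of 11 of the 12 genes with the largest falls, in CPM on a log axis, drawn as in the plot of the largest rises. The blue WT points are all to the right of the red LN3 points, which the choice of genes without overlap required. For Trdc the WT points lie between 75.1 and 79.6 CPM while the LN3 libraries stay at 0.578 CPM or less.

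The other genes were read as 34 programme lists, which were chosen with earlier results of these data known. They are described by their counts of called members and their median beside −0.04 for all genes.

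**Figure D3:**
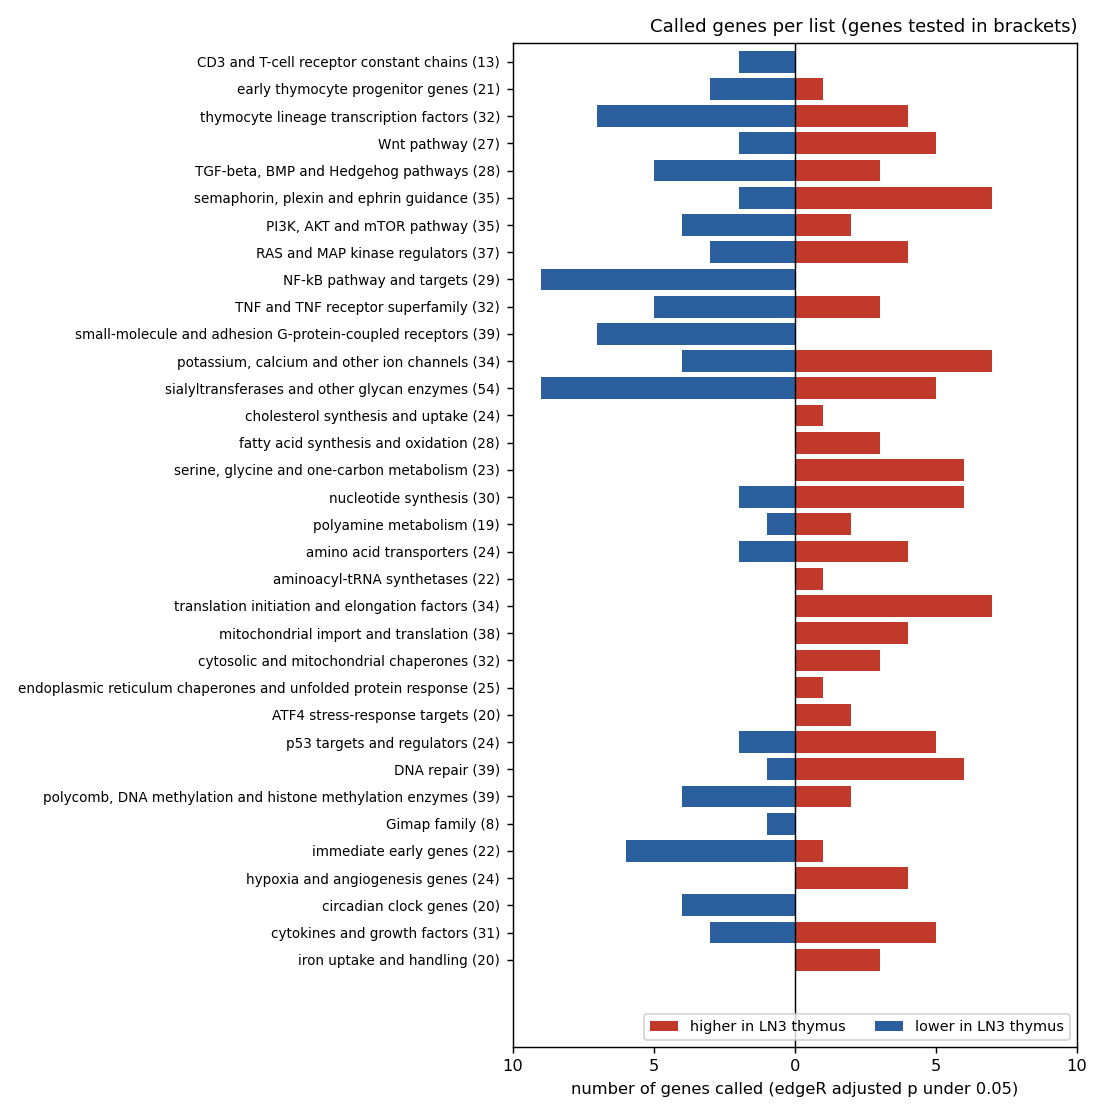
Number of called genes in each programme list, with the genes tested in brackets: red bars to the right count genes higher in LN3 thymus, blue bars to the left genes lower (edgeR adjusted p below 0.05). NF-kB genes and small-molecule receptors have only lower calls (9 and 7), translation factors, mitochondrial import, chaperone and one-carbon genes only higher ones in this fit (7, 4, 3 and 6), and glycan enzymes, ion channels and lineage factors have both.

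Of 13 genes of the CD3 complex and receptor constant chains, 2 were lower, Trdc and Cd247, and none higher (median −0.12). Cd247, the zeta chain that carries most of the receptor's signal motifs, was at 327, 238 and 579.6 CPM in WT thymocytes and 111, 179 and 118 CPM in LN3 thymus (log2 difference −1.49, SE 0.34, adjusted p = 0.0131), a call that did not hold without LN3 thymus 1 (adjusted p = 0.0526) or LN3 thymus 3 (0.0544). The early progenitor list of 21 genes had 1 higher and 3 lower, with a median of −1.35, and 14 of its members lay below WT thymocytes without overlap. Il2ra, the interleukin-2 receptor alpha chain that marks thymocytes before beta selection, was at 440.5, 218 and 184 CPM in LN3 thymus and 52.8, 39.5 and 57.9 CPM in WT thymocytes (log2 difference 2.49, SE 0.72, adjusted p = 0.0434). The groups did not overlap for Il2ra, but its adjusted p was above 0.05 without any 1 of the 6 libraries, from 0.0534 without LN3 thymus 3 to 0.13 without WT thymocyte 2. Kit, the stem cell factor receptor, was lower, at 2.64, 3.47 and 2.64 CPM against 10.2, 9.19 and 17 CPM (log2 difference −2.06, adjusted p = 0.0124). The progenitor transcription factor gene Bcl11a fell from 3.5 ± 0.829 to 0.673 ± 0.202 CPM (log2 difference −2.38, adjusted p = 0.0358), a call lost in each fit without 1 library except that without WT thymocyte 3, with an adjusted p of up to 0.123 without LN3 thymus 3. The third lower gene was Cd44, an adhesion receptor (log2 difference −1.84, adjusted p = 0.0398). The list had 1 lower gene without LN3 thymus 1 or 2 or WT thymocyte 1 or 2, and no higher gene in any fit without 1 library.

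Thymocyte lineage factors moved in both directions: of 32 tested, 4 were higher (Sox13, Tox2, Lef1 and Runx1) and 7 lower, among them Zbtb7b, Egr2, Bcl6, Bach2, Ets2 and Satb1. Zbtb7b, which directs cells to the CD4 lineage, was at 1.13, 1.49 and 2.25 CPM in LN3 thymus and 34.6, 31.5 and 71.1 CPM in WT thymocytes (log2 difference −4.8, SE 0.65, adjusted p = 0.000695). Egr2, which is raised by receptor signals, fell from 30.1 ± 11.5 to 3.4 ± 2.64 CPM (log2 difference −3.17, adjusted p = 0.00387). Sox13, a factor of gamma-delta T cells, was at 47.8, 87 and 85.7 CPM against 9.11, 7.66 and 19 CPM (log2 difference 2.63, SE 0.36, adjusted p = 0.000682). Leaving out 1 library gave 3 or 4 higher and 5 to 8 lower lineage factors.

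Of 27 Wnt pathway genes tested, 5 were higher (Nkd1, Nkd2, Fzd7, Wnt5b and Axin2) and 2 lower (Fzd10 and Tle4), and without any 1 library 4 or 5 were higher. Nkd1, an inhibitor induced by Wnt signals (chromosome 8, 88521354 to 88594884), was at 14.3, 20.1 and 31.1 CPM in LN3 thymus 1, 2 and 3 and at 0.337, 1.04 and 1.63 CPM in WT thymocytes (22-fold; log2 difference 4.46, SE 0.72, adjusted p = 0.0020). Its relative Nkd2 was at 7.55, 8.1 and 5.23 CPM against 0.742, 0.613 and 1.2 CPM (log2 difference 3.03, SE 0.43, adjusted p = 0.000932). Axin2, a widely used read-out of beta-catenin activity, was at 86.4, 94 and 114 CPM and 35, 22.7 and 44.2 CPM. Lef1, a partner factor of beta-catenin, was at 942, 1308 and 905 CPM and 336, 316 and 442 CPM. Both passed the test (log2 differences 1.53 and 1.53, adjusted p = 0.0114 and 0.00713). The receptor Fzd10 was at 1.69, 3.31 and 10.8 CPM in WT thymocytes without a count in LN3 thymus, at least 34.5-fold lower by the floor of 3 counts per library (log2 difference −9.9, adjusted p = 0.00194).

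In the list of transforming growth factor beta, bone morphogenetic protein (BMP) and Hedgehog genes, co-receptors moved in both directions. Of 28 tested, Rgma, Gli1 and Bmp7 were higher and Tgfbr3, Id1, Tgfb1, Rgmb and Ski lower. Gli1, the transcription factor that Hedgehog signals induce (chromosome 10, 127329882 to 127341974), was at 23.6, 43.5 and 28 CPM in LN3 thymus and 1.89, 1.78 and 1.55 CPM in WT thymocytes (18.1-fold; log2 difference 4.18, SE 0.59, adjusted p = 0.000897). The ligand Bmp7 was at 81.3, 59.7 and 56.9 CPM against 9.31, 11.5 and 18.1 CPM (log2 difference 2.35, adjusted p = 0.00094). Tgfbr3, the co-receptor betaglycan (chromosome 5, 107106570 to 107289629), was at 6.12, 5.87 and 7.62 CPM against 50.7, 48 and 60.8 CPM (log2 difference −3.02, SE 0.25, adjusted p = 2.47e-05), with little spread within either group. The ligand Tgfb1 fell by 1.83 (adjusted p = 0.00678), and Id1, a target of BMP signals, was at 0.168, 0.33 and 0.0281 CPM in LN3 thymus against 0.877, 0.919 and 1.55 CPM, or 9 counts in all LN3 thymus libraries. The list had 6 higher genes without WT thymocyte 3, and 3 lower genes without any 1 of the other 5 libraries. The medians of the Wnt list and of this list, 0.12 and 0.09, were below 0 with library totals (−0.12 and −0.16) and stayed above the median of all genes there.

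NF-kB genes had the largest share of lower calls among the 34 lists. Of 29 pathway members and targets, 9 were lower and none higher, with a median of −0.90, and 12 lay below WT thymocytes without overlap. At an unadjusted p below 0.05, 15 of the 29 passed. Traf1, a signal adaptor and NF-kB target (chromosome 2, 34941750 to 34961772), was at 2.52, 6.94 and 5.57 CPM in LN3 thymus and 35.8, 36.5 and 51.9 CPM in WT thymocytes (8.32-fold lower; log2 difference −3.06, SE 0.55, adjusted p = 0.0039). The inhibitor Nfkbia, itself a rapid NF-kB target, was at 25.9, 45.6 and 36.7 CPM against 108, 69.3 and 188 CPM (log2 difference −1.76, SE 0.38, adjusted p = 0.0111). Birc3, Icam1, Nfkbid, Traf2, Nfkbiz and Lta were also lower, with log2 differences of −0.91 (Nfkbiz) to −1.59 (Lta). For Nfkbiz the lowest WT library, WT thymocyte 3 at 22.6 CPM, came close to LN3 thymus 3 at 19.99 CPM. The list's lower count was 14 with library totals and with upper-quartile factors, 5 in the fit of the thymus libraries alone, 2 within the libraries under 2% and 11 within those of 2% or more. Leaving out 1 library gave 4 (without LN3 thymus 1), 5 (without WT thymocyte 1), 6 (without LN3 thymus 3), 7 or 8 lower genes.

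**Figure D4:**
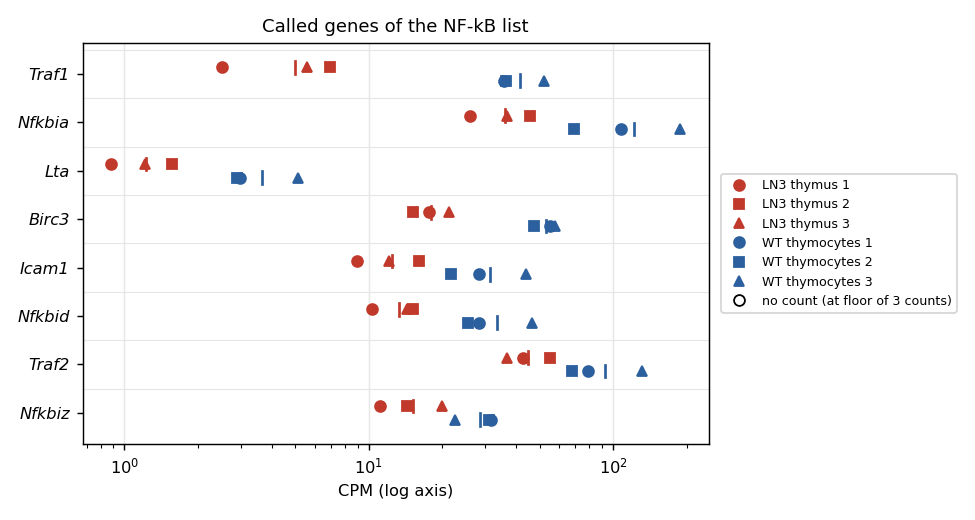
Levels of 8 of the 9 called genes of the NF-kB list, in CPM on a log axis, drawn as in the plot of the largest rises. The LN3 points lie to the left of the WT points in all 8 genes shown, with the widest gap for Traf1 (6.94 CPM at most against 35.8 CPM at least) and the narrowest for Nfkbiz.

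Genes of the tumour necrosis factor (TNF) family, which holds death receptors and co-stimulatory molecules, changed in both directions. Of 32 tested, 5 were lower (Cd40lg, Tnfrsf25, Fas, Tnfrsf4 and Tnfrsf14) and 3 higher (Tnfrsf19, Tnfrsf8 and Tnfsf11), with a median of −0.55. Cd40lg, the T-cell ligand that activates B and dendritic cells, was at 0.168, 0.0826 and 0.0281 CPM in LN3 thymus, 6 counts in all, and at 8.97, 7.35 and 12.2 CPM in WT thymocytes (log2 difference −6.66, SE 0.81, adjusted p = 0.000332). Fas, the death receptor, was at 6.38, 4.54 and 5.17 CPM against 50.3, 40.7 and 32.5 CPM (log2 difference −2.94, SE 0.35, adjusted p = 0.000305). The death-domain receptor Tnfrsf25 fell from 7.63 ± 5.32 to 0.412 ± 0.234 CPM (log2 difference −4.29, adjusted p = 0.00531). On the other side, Tnfrsf8, the CD30 antigen of some lymphomas, was at 152, 119.9 and 166 CPM against 15.1, 8.21 and 17.6 CPM (log2 difference 3.43, SE 0.50, adjusted p = 0.00103), and Tnfrsf19, a receptor of stem and progenitor cells, at 11, 9.09 and 20.2 CPM against 0.337, 0.551 and 1.03 CPM (log2 difference 4.41, adjusted p = 0.00253).

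Guidance molecules, which steer axons and also migrating lymphocytes, gave 7 higher and 2 lower genes of 35. The higher ones were Slit1, Robo1, Sema4c, Plxna3, Ephb2, Plxna1 and Nrp1. Slit1 and Robo1 are ligand and receptor of one system: Slit1 was at 24.6, 11.6 and 12 CPM in LN3 thymus against 0.675, 0.49 and 0.258 CPM (log2 difference 5.05, SE 0.66, adjusted p = 0.000536), and Robo1 at 2.27, 26.4 and 6.86 CPM against 0.675, 0.919 and 1.03 CPM (log2 difference 3.75, adjusted p = 0.0138). The Robo1 call did not hold without LN3 thymus 2 (adjusted p = 0.0604), WT thymocyte 1 (0.0705) or WT thymocyte 2 (0.0525). The lower genes were Sema4d and Plxnd1, the semaphorin receptor that guides positively selected thymocytes to the medulla. Plxnd1 was at 87, 49.8 and 34 CPM against 578, 430.2 and 1014 CPM (log2 difference −3.57, SE 0.54, adjusted p = 0.00141). The count of higher guidance genes was 3 without WT thymocyte 1 or 2 and 4 without LN3 thymus 2.

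Kinase pathway genes changed one by one. Of 35 PI3K, AKT and mTOR genes, 2 were higher (Deptor and Ddit4, both inhibitors of mTOR signalling) and 4 lower (Pik3cb, Inpp5d, Sesn1 and Pdpk1). Deptor was at 39.3, 22.6 and 67.8 CPM in LN3 thymus and 10.7, 11.3 and 5.67 CPM in WT thymocytes (log2 difference 2.23, adjusted p = 0.00943). The catalytic subunit gene Pik3cb was at 0.671, 1.32 and 1.91 CPM against 12.3, 11.9 and 15.5 CPM (log2 difference −3.33, SE 0.49, adjusted p = 0.00119), and the phosphatase gene Inpp5d at 43.9, 36.8 and 119 CPM against 152, 140.4 and 245 CPM (log2 difference −1.43, adjusted p = 0.0341). The Inpp5d call did not hold without WT thymocyte 1 (adjusted p = 0.0631), WT thymocyte 3 (0.0938), LN3 thymus 1 (0.117) or LN3 thymus 2 (0.122). The list had 2 lower genes without LN3 thymus 1 or 2 or WT thymocyte 1, and 1 higher gene without WT thymocyte 1 or 2 and 4 without WT thymocyte 3.

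Of 37 RAS and MAP kinase regulators, 4 were higher (Etv5, Spry2, Rras2 and Dusp10) and 3 lower (Dusp6, Rasgrp2 and Rasgrp1). Etv5, a transcription factor induced by this pathway, was at 33.9, 102 and 155 CPM against 11.2, 11.7 and 19.2 CPM (log2 difference 2.79, SE 0.56, adjusted p = 0.00678), and the feedback inhibitor Spry2 at 15.4, 18.5 and 23.7 CPM against 3.17, 2.82 and 5.67 CPM (log2 difference 2.31, adjusted p = 0.0164). Dusp6, a phosphatase of the kinase ERK and also induced by it, went the other way, at 5.08, 11.2 and 23.8 CPM against 38.7, 30.9 and 62.3 CPM (log2 difference −1.71, adjusted p = 0.0448). The Spry2 call did not hold without WT thymocyte 1 (adjusted p = 0.0776) or 2 (0.0638), and that of Dusp6 in every fit without 1 library except that without LN3 thymus 3, with an adjusted p of up to 0.142 without LN3 thymus 2. Without WT thymocyte 1, 1 regulator was higher, and without WT thymocyte 2, 2 were.

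Ion channels and pumps changed without one direction, with 7 of 34 higher and 4 lower. Scn2b, a beta subunit of sodium channels (chromosome 9, 45117782 to 45130070), was at 188, 146 and 105 CPM in LN3 thymus and 17.4, 15.6 and 27.8 CPM in WT thymocytes (log2 difference 2.85, SE 0.31, adjusted p = 0.000184). Cacna1d, a pore-forming subunit of L-type calcium channels (chromosome 14, 30039939 to 30491455), was at 58.7, 36.7 and 53.1 CPM against 4.18, 3.8 and 3.61 CPM (log2 difference 3.68, SE 0.47, adjusted p = 0.000504). Cacna1a, of P/Q-type channels, was at 22.8, 60.0 and 13.9 CPM against 3.58, 3.12 and 5.75 CPM (log2 difference 2.96, adjusted p = 0.0255), a call that did not hold without LN3 thymus 2 (adjusted p = 0.11) or any 1 WT library (0.053 to 0.108). Atp2b4, Ryr1, Scn4b and Orai3 were also higher, and Cacnb1, Kcnh2, Orai2 and Atp2a3 lower. Orai2 and Orai3 encode calcium entry channels of one family and differed in direction: Orai3 was at 20.1, 31.9 and 33.4 CPM against 7.35, 6.06 and 14 CPM and Orai2 at 43.5, 56.8 and 55.8 CPM against 183, 124 and 309 CPM. Without WT thymocyte 1, 4 channel genes were higher, and without LN3 thymus 2, 2 were lower.

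G-protein-coupled receptors for lipids, nucleotides and other small molecules had 7 lower members of 39 and none higher (median −0.33). Gpr174, a receptor for lysophosphatidylserine, was at 0.923, 1.24 and 0.928 CPM in LN3 thymus and 29.8, 33.5 and 4.64 CPM in WT thymocytes (log2 difference −4.48, SE 0.68, adjusted p = 0.0014), and Gpr183, the oxysterol receptor that positions lymphocytes, at 3.19, 3.22 and 2.19 CPM against 11.1, 13.5 and 18 CPM (log2 difference −2.31, adjusted p = 0.00347). WT thymocyte 3 had the lowest WT level of Gpr174 and the highest of Gpr183. The histamine receptor gene Hrh2 was lower (log2 difference −2.12, adjusted p = 0.0225), a call that did not hold without WT thymocyte 1 (0.0709), LN3 thymus 1 (0.0807) or LN3 thymus 3 (0.0849). Gpr18, Adgrg3, Lpar6 and Gpr132 were the other lower members. The count of lower receptors was 3 without LN3 thymus 1 or 2, 2 without WT thymocyte 1 and 4 without WT thymocyte 3, and 1 was higher without LN3 thymus 1.

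Among 31 cytokine and growth factor genes tested, 5 were higher and 3 lower. Il22, a cytokine that acts on epithelia, was at 11.9, 9.09 and 3.63 CPM in LN3 thymus and Il10, an inhibitory cytokine, at 1.17, 1.65 and 2.64 CPM, and neither had a count in WT thymocytes. By the floor of 3 counts per library, Il22 was at least 38.3-fold higher and Il10 at least 8.5-fold (adjusted p = 0.00963 and 0.00878). Il22 shares its reads with Iltifb and is uncertain to that extent. The ligands Pdgfb (12.8, 17.4 and 43.3 CPM against 2.63, 1.59 and 4.29 CPM), Pdgfc (8.05, 1.98 and 3.23 against 0.27, 0.49 and 0.344 CPM) and Hbegf (1.47, 3.63 and 3.18 against 0.202, 0.122 and 0.429 CPM) were higher too, and Pdgfb and Pdgfc belong to the ligand family of Pdgfrb. The lower members were Fgf13, Tgfb1 and Il21. Within the libraries under 2%, 0 genes were called higher, and within those of 2% or more, 1. Leaving out 1 library gave 4 or 5 higher genes, and 5 were lower without LN3 thymus 2.

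Enzymes that build the sugars of glycoproteins changed in both directions. Of 54 tested, 5 were higher and 9 lower. 3 sialyltransferases that act on N-acetylgalactosamine were higher (St6galnac3, St6galnac4 and St6galnac6), as were the fucosyltransferase Fut4 and the sulphotransferase Chst1. Fut4 was at 8.85, 15.3 and 18.6 CPM in LN3 thymus and 1.62, 1.53 and 2.15 CPM in WT thymocytes (log2 difference 3.01, SE 0.58, adjusted p = 0.00564). Lower were St3gal6, the N-glycan enzymes Mgat1 and Mgat5, B3gnt2, B3gnt8, Galnt4, Gcnt4, the Notch-modifying Lfng, and Csgalnact1, which starts chondroitin sulphate chains. St3gal6, another sialyltransferase, was at 0.126, 0.248 and 0.337 CPM against 10.8, 9.0 and 9.45 CPM (log2 difference −5.3, SE 0.66, adjusted p = 0.000374), and Csgalnact1 had 2 counts in LN3 thymus in all and 7.76, 3.12 and 4.81 CPM in WT thymocytes, where the ratio of WT to LN3 was 186 (95% counting interval 50.8 to 1540) (log2 difference −7.26, adjusted p = 0.00169). Lower calls were 4 without LN3 thymus 1, 5 without LN3 thymus 2 or WT thymocyte 1 and 6 without WT thymocyte 3, and higher calls 2 without WT thymocyte 1 and 3 without WT thymocyte 2.

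Genes of biosynthesis had more higher than lower calls. Of 23 serine, glycine and one-carbon genes, 6 were higher and none lower (median 0.64), and of 30 nucleotide synthesis genes 6 were higher and 2 lower (median 0.71). Slc19a1, the reduced folate carrier, was at 62.6, 93.3 and 52.8 CPM in LN3 thymus and 15.9, 13.2 and 35 CPM in WT thymocytes (log2 difference 1.7, SE 0.36, adjusted p = 0.00898). The purine enzyme Atic was at 313, 429 and 174 CPM against 80.8, 83.3 and 160.5 CPM (log2 difference 1.5, adjusted p = 0.0219). Cad, which starts pyrimidine synthesis, was at 375, 409 and 202 CPM against 107, 95.5 and 184 CPM (log2 difference 1.35, adjusted p = 0.0263), and the salvage enzyme Aprt at 49.2, 107 and 50.8 CPM against 15.6, 9.0 and 33.8 CPM (log2 difference 1.83, adjusted p = 0.0216). WT thymocyte 3 was the highest WT library for Slc19a1, Atic, Cad and Aprt. Among the nucleotide genes named here, the largest change was a fall: Samhd1, which breaks down deoxynucleotides, was at 9.1, 16.4 and 14.1 CPM against 87.2, 103 and 112 CPM (log2 difference −2.94, SE 0.45, adjusted p = 0.00143).

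These counts were fragile. Without LN3 thymus 2, WT thymocyte 1 or WT thymocyte 2, no nucleotide gene was called higher, and without WT thymocyte 3, 12 were. For one-carbon genes the counts were 1 (without LN3 thymus 2), 0 (without WT thymocyte 1), 1 (without WT thymocyte 2), 3 (without LN3 thymus 1) and 9 (without WT thymocyte 3), and 1 was lower without LN3 thymus 3. The nucleotide list had 1 lower gene in each fit without 1 library except that without WT thymocyte 3. Of the genes named, the calls of Atic, Cad and Aprt ended without LN3 thymus 2 (adjusted p = 0.0947, 0.0982 and 0.0962), WT thymocyte 1 (0.117, 0.131 and 0.108) or WT thymocyte 2 (0.092, 0.108 and 0.0719), and that of Cad also without LN3 thymus 1 (0.0662). The call of Slc19a1 ended without WT thymocyte 1 (0.0601). That of Samhd1 held in all of them, with an adjusted p of at most 0.00953.

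Of 24 cholesterol genes Stard4, and of 28 fatty acid genes Scd1, Elovl6 and Acaca, were higher (4.17% and 10.7% called). With library totals none of these 4 calls held, at an adjusted p of 0.0553 for Elovl6, 0.0641 for Scd1, 0.108 for Acaca and 0.115 for Stard4. Elovl6, which lengthens fatty acids, was at 34.8, 30.1 and 39.2 CPM in LN3 thymus and 14.4, 12.1 and 4.21 CPM in WT thymocytes (log2 difference 1.76, adjusted p = 0.011). The desaturase Scd1 (29.6, 17.7 and 40.1 CPM against 5.6, 6.19 and 5.67 CPM; log2 difference 2.32, adjusted p = 0.0394) lost its call without any 1 library but LN3 thymus 2, at up to 0.129 without WT thymocyte 1. Acaca (log2 difference 0.90, adjusted p = 0.0447) lost it without LN3 thymus 1 or 2 or WT thymocyte 1 or 2, at up to 0.156 without WT thymocyte 2, and Stard4 (log2 difference 0.99, adjusted p = 0.0187) without LN3 thymus 1 (0.054). The fatty acid list had 1 higher gene without LN3 thymus 1 or WT thymocyte 1 or 2. Polyamine genes had 2 higher, Arg1 and Srm, and 1 lower, Smox, of 19. Arg1, the arginase that makes ornithine, was at 5.08, 13.6 and 19.1 CPM against 0.675, 0.674 and 0.429 CPM (log2 difference 4.39, SE 0.60, adjusted p = 0.000686). Srm, which makes spermidine (log2 difference 1.4, adjusted p = 0.0419), lost its call without LN3 thymus 1 or 2 or WT thymocyte 1 or 2, at up to 0.186 without WT thymocyte 1, and Smox (log2 difference −1.52, adjusted p = 0.0328) without any 1 library but WT thymocyte 2, at up to 0.111 without LN3 thymus 1. The polyamine list had 1 higher gene without any of those 4 libraries.

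Amino acid carriers changed one by one, with 4 of 24 higher and 2 lower. Slc36a4, a proton-coupled carrier of small neutral amino acids (chromosome 9, 15709738 to 15743361), was at 85, 77.7 and 68.8 CPM in LN3 thymus and 16.3, 18.8 and 15.5 CPM in WT thymocytes (4.58-fold; log2 difference 2.19, SE 0.22, adjusted p = 9.31e-05). Slc6a9, a glycine carrier, rose from 0.566 ± 0.203 to 4.24 ± 2.17 CPM (log2 difference 2.86, adjusted p = 0.0264), a call that did not hold without any 1 library but LN3 thymus 3, at up to 0.0784 without LN3 thymus 2. Slc1a4 and Slc7a5 were also higher, and Slc6a19 and Slc43a2 lower. The higher count was 2 without LN3 thymus 1 or 2 and 1 without WT thymocyte 1 or 2, and the lower count 4 without WT thymocyte 3. Of the ATF4 stress-response targets, 2 of 20 were higher, Gpt2 (log2 difference 1.59, adjusted p = 0.0098) and Atf5 (log2 difference 1.56, adjusted p = 0.00873), and both calls ended without WT thymocyte 1 (adjusted p = 0.0513 and 0.0551).

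Among 34 translation factors, 7 (20.6%, beside 6.06% over all genes tested) were higher and none lower (Eif1a, Eif2s2, Eif3e, Eef1b2, Eif2b3, Eif2a and Pabpc4), with a median of 0.69, and 16 lay above WT thymocytes without overlap. Eif1a, which helps the ribosome find the start codon, was at 67.5, 83.7 and 83.5 CPM in LN3 thymus and 31.9, 24.9 and 12.3 CPM in WT thymocytes (log2 difference 1.76, SE 0.36, adjusted p = 0.00767). Eif2s2 was at 119, 187 and 153 CPM against 67, 59.8 and 31.8 CPM (log2 difference 1.53, adjusted p = 0.0106) and Eif3e at 202, 399.6 and 388 CPM against 131, 123 and 101 CPM (log2 difference 1.48, adjusted p = 0.00697). WT thymocyte 3 was the lowest WT library for these 3 genes. The translation count was 3 without LN3 thymus 2 or WT thymocyte 1, 4 without WT thymocyte 2 and 15 without WT thymocyte 3, and 1 within the libraries under 2%.

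Mitochondrial import and translation had 4 higher of 38 (Timm8a1, Timm9, C1qbp and Tomm70a; median 0.54), chaperones 3 of 32 (Cct8, Hspd1 and Dnajc2; median 0.57), aminoacyl-tRNA synthetases 1 of 22 (Eprs; median 0.55) and the chaperones of the endoplasmic reticulum 1 of 25 (Atf6; median 0.20). These are 10.5%, 9.38%, 4.55% and 4.0% of the lists, beside 6.06% higher over all genes tested. None had a lower call, but with library totals the import, chaperone and endoplasmic reticulum lists had 1 each. Timm9, a small chaperone between the mitochondrial membranes, was at 28, 28.9 and 28.6 CPM in LN3 thymus and 11.8, 12.1 and 6.7 CPM in WT thymocytes (log2 difference 1.48, SE 0.32, adjusted p = 0.0102), and Atf6, a sensor of unfolded protein, at 48.6, 91.1 and 90.0 CPM against 25.8, 20.8 and 27.3 CPM (log2 difference 1.64, adjusted p = 0.00588). Without WT thymocyte 3, the counts were 12 for mitochondrial import and translation, 9 for chaperones and 6 for tRNA synthetases. Without WT thymocyte 1 they were 2, 0 and 0, without LN3 thymus 2 also 2, 0 and 0, and without WT thymocyte 2 they were 2, 1 and 0. The calls of Timm8a1 (log2 difference 1.54, adjusted p = 0.0208), C1qbp (log2 difference 1.3, adjusted p = 0.0199) and Eprs (log2 difference 1.07, adjusted p = 0.0242) ended in each of those last 3 fits, with an adjusted p of up to 0.0794, 0.113 and 0.102. Those of Cct8 (log2 difference 1.27, adjusted p = 0.0245) and Hspd1 (log2 difference 1.25, adjusted p = 0.0323) ended there and without LN3 thymus 1, at up to 0.113 and 0.129 without WT thymocyte 1, and that of Hspd1 also without WT thymocyte 3 (0.0646). That of Dnajc2 (log2 difference 1.19, adjusted p = 0.0321) held only without LN3 thymus 1 or WT thymocyte 2 and was at up to 0.112 without LN3 thymus 2.

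Cell-cycle inhibitor genes of the Cdkn2 locus were higher in all 3 leukaemias than in every WT library, though at 9.39 CPM or less. Cdkn2a, which encodes p16INK4A and p19ARF and is often deleted in T-ALL, was at 9.39, 7.1 and 2.9 CPM in LN3 thymus with 3 counts in all WT thymocytes, a ratio of 82.4 (95% counting interval 28 to 401) (log2 difference 6.4, SE 0.86, adjusted p = 0.00064). Cdkn2b, its neighbour, which encodes p15INK4B, was at 3.73, 1.65 and 2.73 CPM against 0.0675, 0.0612 and 0.258 CPM (log2 difference 4.43, SE 0.83, adjusted p = 0.00481). Both genes had counts in every LN3 library. Of 24 p53 targets and regulators, 5 were higher (with Plk2, Pmaip1 and Ei24) and 2 lower (Fas and Sesn1). Plk2, a kinase gene that p53 induces, differed most among the leukaemias, at 1.38, 17.3 and 47.9 CPM against 0.675, 0.306 and 1.8 CPM (log2 difference 4.61, adjusted p = 0.0381). The Plk2 call ended in every fit without 1 library except that without LN3 thymus 1, at up to 0.141 without WT thymocyte 1. The list had 2 higher genes without LN3 thymus 2, WT thymocyte 1 or WT thymocyte 2, and 3 without LN3 thymus 3 or WT thymocyte 3.

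DNA repair genes had a median of 0.62, with 6 of 39 higher (Brca2, Rad51b, Xrcc5, Msh3, Palb2 and Xrcc2) and Msh6 lower, and 15 lay above WT thymocytes without overlap. Brca2, a gene of homologous recombination, was at 117, 67 and 96.2 CPM in LN3 thymus and 30.2, 38.1 and 5.5 CPM in WT thymocytes (log2 difference 1.92, adjusted p = 0.0361). WT thymocyte 3 was far below the other WT libraries for Brca2, and its call did not hold without WT thymocyte 1 (adjusted p = 0.0816), LN3 thymus 1 (0.0941) or LN3 thymus 3 (0.0751). It also ended with library totals (0.121), upper-quartile factors (0.0697), no filter (0.0739), a replicate block (0.0595) and the thymus libraries alone (0.0995). The recombination gene Rad51b (log2 difference 1.54, adjusted p = 0.033) lost its call without any 1 library but WT thymocyte 3, at up to 0.131 without WT thymocyte 1, and the end-joining gene Xrcc5 (log2 difference 1.13, adjusted p = 0.0257) without LN3 thymus 2 or 3 or WT thymocyte 1 or 2, at up to 0.118 without WT thymocyte 1. The list had 0 higher genes without WT thymocyte 1, 1 without LN3 thymus 2 or 3 and 2 without LN3 thymus 1 or WT thymocyte 2, and 1 with library totals, and its lower count was 0 without any 1 LN3 library or WT thymocyte 1.

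Of 39 chromatin modifiers, 6 (15.4%) were called: 2 were higher (Mtf2 and Bmi1) and 4 lower, among them Kdm5b, Pcgf5 and Ezh1. Mtf2, a DNA-binding accessory protein of polycomb repressive complex 2, was at 504, 570.2 and 480.1 CPM in LN3 thymus and 163, 153 and 28.2 CPM in WT thymocytes (log2 difference 2.17, SE 0.48, adjusted p = 0.0123), with WT thymocyte 3 far below the other WT libraries. The Mtf2 call ended in the fit of the thymus libraries alone (adjusted p = 0.0558). Kdm5b, a demethylase of histone H3 lysine 4, was at 30.3, 38.5 and 10.3 CPM against 218, 182 and 293 CPM (log2 difference −3.13, SE 0.44, adjusted p = 0.000874). Pcgf5, a subunit of polycomb repressive complex 1, was at 10.8, 7.85 and 4.75 CPM against 53.9, 64.4 and 26.1 CPM (log2 difference −2.63, SE 0.42, adjusted p = 0.00203). Lower calls of this list were 2 without LN3 thymus 2 or 3 or WT thymocyte 1 or 3, and higher calls 1 without LN3 thymus 3.

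Immediate early genes, which respond within minutes to receptor signals and also to handling of cells, had 6 of 22 lower (Egr2, Nr4a2, Jund, Nr4a3, Klf6 and Btg2) and Jun higher (median −0.58). Nr4a2, a nuclear receptor induced by T-cell receptor signals, was at 0.336, 0.248 and 0.422 CPM in LN3 thymus and 3.64, 2.69 and 2.23 CPM in WT thymocytes (log2 difference −3.03, SE 0.52, adjusted p = 0.00281), and Nr4a3 at 2.89, 8.59 and 5.26 CPM against 30.6, 23.7 and 20.2 CPM (log2 difference −2.16, adjusted p = 0.00749). The AP-1 subunits went apart: Jun was at 41.4, 34.9 and 27.5 CPM against 4.99, 3.0 and 8.76 CPM (log2 difference 2.64, adjusted p = 0.00997) and Jund at 42.3, 55.1 and 22.2 CPM against 230.3, 128 and 464 CPM (log2 difference −2.79, adjusted p = 0.00768). Leaving out 1 library gave 5 or 6 lower genes, and Jun was not called without WT thymocyte 1.

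Hypoxia and angiogenesis genes had 4 higher of 24 and none lower (median 0.39). Car12, a membrane carbonic anhydrase (chromosome 9, 66713686 to 66766845), was at 31.2, 29.2 and 21.2 CPM in LN3 thymus and 3.37, 3.43 and 4.47 CPM in WT thymocytes (log2 difference 2.86, SE 0.34, adjusted p = 0.000305). The oxygen-sensing hydroxylase Egln3 was at 91.3, 158 and 165 CPM against 31.4, 23.4 and 41.1 CPM (log2 difference 2.11, adjusted p = 0.0059). Epas1, the hypoxia-inducible factor 2 alpha, varied among the leukaemias, at 38.2, 11.4 and 139 CPM against 5.87, 6.06 and 7.21 CPM (log2 difference 3.3, adjusted p = 0.0157), and its call did not hold without LN3 thymus 3 (0.0701), WT thymocyte 1 (0.0687), 2 (0.0578) or 3 (0.0535). Angptl4 was the fourth. Without WT thymocyte 1 or 2 the list had 2 higher genes.

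Iron genes had 3 higher of 20. Tfrc, the transferrin receptor, was at 500.1, 452 and 241 CPM in LN3 thymus and 81.3, 84.6 and 22.5 CPM in WT thymocytes (log2 difference 2.66, SE 0.60, adjusted p = 0.0127), and the iron carrier Slc11a2 at 187, 141 and 183 CPM against 36.2, 33.8 and 61.4 CPM (log2 difference 1.96, SE 0.30, adjusted p = 0.0014). Hmox1, which frees iron from haem, was at 4.78, 13 and 36.3 CPM against 2.02, 1.23 and 4.04 CPM (log2 difference 2.92, adjusted p = 0.0444), a call lost in every fit without 1 library except that without LN3 thymus 1, at up to 0.193 without LN3 thymus 3, so that the count was then 2.

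Of 20 circadian clock genes, 4 were lower, among them Npas2, Arntl and Cry1, and none was higher. The core clock factor Arntl was at 48.7, 43.7 and 30.2 CPM in LN3 thymus and 93.8, 90.2 and 93.5 CPM in WT thymocytes (log2 difference −1.18, SE 0.22, adjusted p = 0.00529). The 3 WT libraries lay close together for Arntl. Its relative Npas2 was at 0.294, 0.496 and 0.197 CPM against 2.36, 3.19 and 3.95 CPM (log2 difference −3.33, adjusted p = 0.00285). The labels give no time of day for the collection. Of the 8 Gimap genes, GTPases of lymphocyte survival, only Gimap3 was lower, at 5.12, 9.91 and 23 CPM against 81.2, 89 and 114 CPM (log2 difference −2.9, adjusted p = 0.00844).

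Markers of other cells were measured because the whole organ was dissociated. In bulk RNA, fewer cells of a type and less RNA per cell cannot be told apart. NK and innate lymphoid genes were lower in 4 of 15 (Klrb1c, Nkg7, Klrk1 and Ctsw), with a summed level of 19.3 to 43.9 CPM in LN3 thymus and 76.5 to 127 CPM in WT thymocytes. That count was 1 without LN3 thymus 1 and 2 without LN3 thymus 3 or WT thymocyte 1. The erythroid list summed to 14.4 to 155.5 CPM in LN3 thymus and to 3940, 21.7 and 1508 CPM in WT thymocytes 1, 2 and 3, with Epor higher and Car2 and Alas2 lower of 13. Without WT thymocyte 2, the library with the lowest WT sum, 6 erythroid genes were lower, and without any 1 other library 1 was. Among the fits without 1 library, an erythroid gene was called higher in those without LN3 thymus 1 or LN3 thymus 3. Stromal and endothelial genes summed to 628 to 1040.0 CPM in LN3 thymus and 239.9 to 545 CPM in WT thymocytes, and of 16 tested Pdgfrb and Pdgfra were higher and Cdh5 lower. Pdgfrb, described above, made up most of that LN3 sum. The other 2 calls were unstable: 1 gene was higher without LN3 thymus 2 or 3 or WT thymocyte 1 or 2, and none was lower without any 1 library but WT thymocyte 2. Thymic epithelial genes had 1 lower of 8 (Prss16; sums of 107.9 to 169.6 against 70.1 to 118.6 CPM) and B-cell genes 1 lower of 15 (Cd79b; 306 to 487 against 379 to 628 CPM). The first was 0 without LN3 thymus 2 or WT thymocyte 3 and 3 without WT thymocyte 2, and the second 0 in each fit without 1 library but that without WT thymocyte 2. Of the epithelial genes, 2 lay above WT thymocytes without overlap and 3 below. Those above were Cldn4 and Krt18, and neither was called (adjusted p = 0.316 and 0.1002). Krt18 was at 7.63, 49.48 and 49.35 CPM in LN3 thymus and 2.77, 0.245 and 5.07 CPM in WT thymocytes.

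None was called of the 18 macrophage and granulocyte genes (sums of 73.2 to 494 CPM in LN3 thymus and 105 to 299 CPM in WT thymocytes), the 16 dendritic cell genes (161 to 384 against 286 to 798 CPM) or the 10 platelet genes (6.94 to 11.4 against 7.35 to 8.76 CPM). At an unadjusted p below 0.05, 1, 4 and 2 of them passed. DESeq2 called 2 dendritic genes lower, and the fit of the thymus libraries alone 4. Of the 16 dendritic genes 6 lay below WT thymocytes without overlap. No tested marker of these lists was without a count in all 6 libraries, and their part in the results was not tested. The 5 sex-linked genes held no call, and Xist was high in LN3 thymus 3 (2.14, 3.88 and 3976 CPM in LN3 thymus 1, 2 and 3) and in WT thymocyte 2 (2.97, 2582 and 1.03 CPM).

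Mitochondrially encoded transcripts were higher in 9 of 13, with a median of 1.41. Their share of all counts was 2.12%, 2.41% and 2.82% in LN3 thymus and 1.7%, 1.11% and 0.937% in WT thymocytes, or 2.45 ± 0.355% against 1.25 ± 0.398%. The groups did not overlap, and the exact two-sided permutation test gave p = 0.1, the smallest that 3 against 3 libraries allow. The called count was 3 without LN3 thymus 2 or WT thymocyte 2, 4 without LN3 thymus 3 and 0 within the libraries under 2%. The part of RNA quality in this difference was not tested.

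The test was also run within each side of the split of the libraries by ribosomal RNA share. Under 2%, where 1 LN3 library stood against 2, the same test called 408 of the higher and 254 of the lower genes, and at 2% or more, with 2 against 1, it called 579 and 775. Since the groups did not overlap in 2319 of the 2354 called genes, the sign of such a gene within a side was fixed beforehand. In both fits the lone library is assumed to vary like the other groups. With the split as a term of the model, 1326 genes were higher and 1459 lower.

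**Figure D5:**
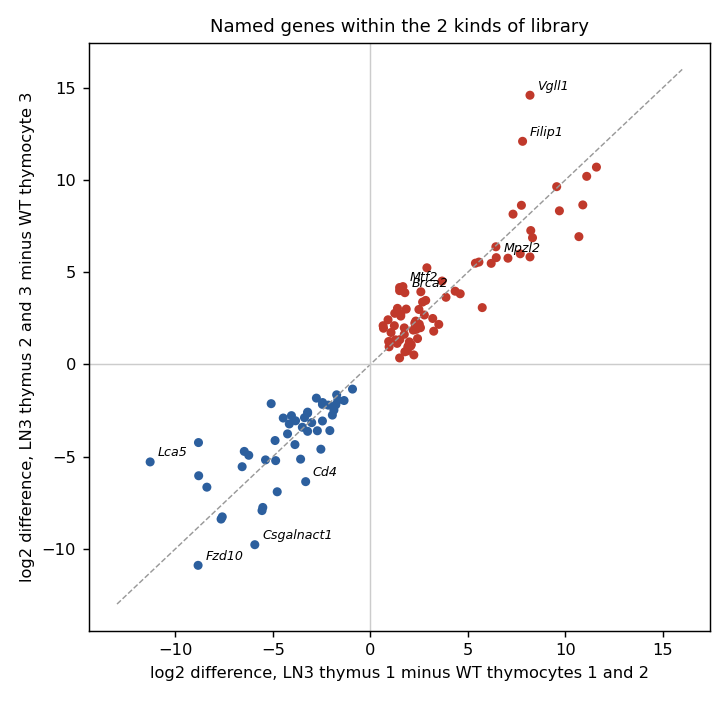
Log2 differences of the 119 called named genes within the libraries under 2% of counts on ribosomal RNA (x axis, LN3 thymus 1 minus WT thymocytes 1 and 2) and within those of 2% or more (y axis, LN3 thymus 2 and 3 minus WT thymocyte 3); red genes were higher and blue genes lower in LN3 thymus, and the dashed line marks equal values. For a gene without overlap between the groups the side of 0 was fixed beforehand, and Vgll1 and Filip1 lie far above the dashed line.

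Some genes were high in 1 LN3 thymus library alone among the 6 thymus libraries. At least 20 CPM in 1 LN3 thymus library, at most 2 CPM in the other 2 and at most 1 CPM in every WT thymocyte library held for 5 genes, of which 2 were in LN3 thymus 2 (Trav10d and Neo1), 3 in LN3 thymus 3 (Gm10384, Gm15280 and Bcas1) and none in LN3 thymus 1. Trav10d, Gm10384 and Gm15280 were named after their values were seen. Neo1, which encodes neogenin, a receptor for Rgma, was at 26.5 CPM in LN3 thymus 2, at 0.126 and 0.591 CPM in LN3 thymus 1 and 3, and at up to 0.405 CPM in WT thymocytes. Bcas1 was at 23.9 CPM in LN3 thymus 3, at 0.0826 CPM or less in the other LN3 thymus libraries and at up to 0.810 CPM in WT thymocytes. As side values, Neo1 was at 14.7, 0.463 and 0.114 CPM in LN3 spleen 1, 2 and 3, and Bcas1 at 0.610, 18.4 and 0.455 CPM. For both genes the high spleen library did not have the number of the high thymus library. Gm10384 was at 9.40, 37.8 and 23.6 CPM in LN3 spleen 1, 2 and 3, and Gm15280 at 25.2 and 21.9 CPM in LN3 spleen 2 and 3. With at least 50 CPM asked for, 0 genes met the rule, and with library totals 2 did.

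Over 9297 genes on 20 chromosomes, the median log2 difference of a chromosome from the WT mean reached at most 0.279 in size in LN3 thymus, for the X chromosome in LN3 thymus 3, and −0.46 in WT thymocyte 3 against the other 2 WT libraries, also for X. The X median was 0.155 and 0.374 in WT thymocytes 1 and 2, and 0.241 and 0.181 in LN3 thymus 1 and 2. Expression in proportion to 3 copies against 2 would give 0.585. Chromosome 15, which carries Myc, was at −0.13 to −0.0121 in the 3 leukaemias. Expression is an indirect measure of copy number, and smaller or partial gains and losses were not tested.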

How the data were processed

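RNA was selected for poly(A), made into directional libraries and sequenced, per the labels' protocols. The authors deposited 2 tables: estimated counts per gene, made with kallisto 0.46.1 on GRCm38, per the submitters' processing notes, and variance-stabilized log2 values, which the authors deposited as a second table and which served only as an alternative. FastQC and DESeq2 are also named in those notes. All deposited estimated counts were whole numbers (100%, with no tolerance), so rounding changed none.

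The table held 54351 genes, of which 16997 had no count. edgeR 4.0.16 in R 4.3.3 (filterByExpr over the 4 groups, TMM factors, 4 group means over 12 libraries, robust quasi-likelihood test with Benjamini-Hochberg adjustment, threshold 0.05) tested 20897 genes for LN3 thymus minus WT thymocytes, with 8 residual degrees of freedom before moderation and a common biological coefficient of variation of 0.441. The 4 groups share 1 estimate of each gene's spread. All log2 differences, SEs and adjusted p-values in the text come from this fit, and CPM from its scaled totals. Positions are those of GENCODE on GRCm38, matched for 20708 tested genes. Folds for genes without a count in a group are bounds from 3 counts per library, ratios for 1 to 3 counts carry exact 95% intervals, and both cover counting error only. How kallisto shared reads between near-identical genes is not known from the sources used here.

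Named genes were the anchor genes given first, the 12 largest rises and 12 largest falls and the 6 smallest p-values in each direction, among called genes without overlap, with a mean of at least 10 CPM in the higher group, leaving out predicted, receptor-segment and similar loci, and the first 3 called genes by size of change in each list. Other called list members are named beside their count, and a few genes that the rule names are not reported here. Members, lists and tests were chosen with earlier results of these data known. Alternatives were other scalings, no filter, the thymus libraries alone, leaving out each library, a replicate block, DESeq2 1.42.0, limma 3.58.1 on the deposited log2 values, and, chosen after seeing the data, 3 fits of the ribosomal RNA split. The steps were tested on simulated data of 20897 genes, where 55 of 187 changed genes were called, all in the right direction, beside 6 unchanged ones.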

Additional observations from a re-analysis of the deposited data

Results flagged for a closer look

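In 14 of the 125 named genes tested, the difference between LN3 and wild-type libraries was not the same in thymus and spleen. The test was the interaction term of the edgeR fit (Benjamini-Hochberg adjusted p below 0.05 over all genes). Most named genes were chosen by their thymus difference, which also enters the interaction. The share of all genes that passed it was not counted, so the number 14 has no background to be read against. The values below are the thymus difference minus the spleen difference on the log2 scale. The control populations differ, all thymocytes in one organ and CD8 T cells in the other, so organ and control cannot be told apart. The titles number the thymus and spleen libraries of LN3 mice by the same leukaemias. The fit treats all 12 libraries as independent, and no sharing was modelled. Correlations of log2 CPM did not follow the numbers throughout. LN3 thymus 1, 2 and 3 were at 0.874, 0.935 and 0.928 with the same-numbered spleen library. With LN3 spleen 2 they were at 0.921, 0.935 and 0.971. Whether same-numbered libraries share a leukaemia was not tested. The semaphorin receptor gene Plxnd1 was −3.57 in thymus and 1.14 in spleen, an interaction of −4.70 (adjusted p = 0.00435). Cd4 was −4.71 in thymus and −0.53 in spleen, an interaction of −4.18 (adjusted p = 0.0444), and Ptcra, which did not pass the test in thymus, 0.21 and 5.71, an interaction of −5.50 (adjusted p = 0.0233). The Cd4 level was 42.7 ± 41.7 CPM in LN3 thymus and 13.9 ± 6.88 CPM in LN3 spleen. In the controls it was 1120 ± 389 CPM in WT thymocytes and 20.2 ± 16.45 CPM in spleen CD8 T cells. In the same order, Ptcra was at 31.7 ± 24.1, 17.7 ± 12.2, 27.4 ± 13.5 and 0.32 ± 0.0909 CPM. Plxnd1 was at 56.9 ± 27.2, 45.1 ± 15.7, 674 ± 303 and 20.6 ± 11.6 CPM. The fall in thymus was the larger one for Bahcc1 (−4.53, adjusted p = 0.0139), Gpc2 (−5.28, adjusted p = 0.0283), St3gal6 (−3.72, adjusted p = 0.0204) and Tgfbr3 (−1.51, adjusted p = 0.0238). Arntl fell in thymus and had a spleen difference above 0 (0.41 in spleen, interaction −1.59, adjusted p = 0.0136). Csgalnact1 fell in thymus and scarcely differed in spleen (0.01 in spleen, interaction −7.27, adjusted p = 0.0127). Its mean was low in both spleen groups, 0.470 CPM in LN3 spleen and 0.495 CPM in spleen CD8 T cells. The rise in spleen was the larger one for Scn2b (−3.54, adjusted p = 0.00122), Egln3 (−3.64, adjusted p = 0.00468) and Sox13 (−2.84, adjusted p = 0.00687), where normal CD8 T cells had 0.906, 3.16 and 1.97 CPM. The rise in thymus was the larger one for Car12, 2.86 against 0.98, an interaction of 1.87 (adjusted p = 0.0373), and Arg1 was at 4.39 against −0.06, an interaction of 4.44 (adjusted p = 0.00725).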

How the results depend on the processing

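The count of higher genes, 1266, was 811 with the thymus libraries alone, 439 within the libraries under 2% of counts on ribosomal RNA, 1947 within those of 2% or more and 562 to 1651 when 1 library was left out. The count of lower genes, 1088, was 1647 with library totals, 668 with the thymus libraries alone, 297 under 2%, 1673 with DESeq2 and 641 to 1085 when 1 library was left out. Among the fits that left out 1 library, the lowest counts came without WT thymocyte 1 and the highest without WT thymocyte 3, and the cause was not tested. No filter gave 1194 and 956, and limma on the variance-stabilized values 1166 and 1169. Of the 119 called named genes, DESeq2 called all, upper-quartile factors 115, limma 110, library totals 109, no filter 108, the thymus libraries alone 103, the fits without 1 library 88 to 107, the libraries of 2% or more 87 and those under 2% 60. None of these 119 changed direction under 16 alternatives, but in genes without overlap the choice of genes fixes the direction wherever libraries are left out. The Lmo2 log2 difference, which was not called, was below 0 without LN3 thymus 3 (−0.81) and under 2% (−0.24). The genes high in 1 LN3 thymus library numbered 0 with a minimum of 50 CPM and 2 with library totals. With the replicate number as a block, 906 genes were higher and 756 lower. The deviations of same-numbered libraries from their group means had correlations of 0.14, −0.50 and −0.13. The highest were for LN3 thymus 2 with WT thymocyte 3 (0.48) and LN3 thymus 1 with WT thymocyte 2 (0.42). Each of these pairs lies on one side of the ribosomal RNA split. With so few libraries per group this cannot decide whether the numbers pair them. Low counts limit the largest folds, since a count of 0 allows up to 3 counts.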

Other observations

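Beside Vgll1, Tead1 and Amotl1, the other genes of the TEAD cofactors and of the Hippo kinase pathway, which holds the cofactor YAP out of the nucleus, were read as a list of 25 chosen after these values were seen. Of 18 tested, 6 were higher in LN3 thymus (Tead1, Tead3, Vgll1, Amotl1, Amotl2 and Ajuba) and 2 lower (Lats2 and Stk4), by edgeR's quasi-likelihood test. Over all genes tested 6.06% were higher and 5.21% lower, but a list built around genes picked for their rise cannot be set against these shares. Tead3 and Stk4 passed narrowly (adjusted p = 0.0446 and 0.0491). Tead2 was not called (0.0669) but lay below WT thymocytes without overlap, at 1.51, 1.24 and 1.94 CPM against 4.18, 2.88 and 4.38 CPM. Tead3 was at 14.1, 16.7 and 14.2 CPM in LN3 thymus 1, 2 and 3 and at 5.6, 3.37 and 6.18 CPM in WT thymocytes. The kinase gene Lats2 was at 1.64, 1.24 and 2.70 CPM against 22.9, 16.7 and 32.5 CPM, and the kinase gene Stk4 at 225.2, 336 and 352 CPM against 505.5, 445 and 723 CPM, without overlap in either gene. The adaptor gene Ajuba was at 11.1, 19.1 and 12.1 CPM against 2.23, 2.69 and 4.64 CPM. Single leukaemias stood out in 3 members: Yap1 was at 51.0 CPM in LN3 thymus 2 and at 2.25 to 5.70 CPM in the other 5 libraries, Amot at 82.9 CPM in LN3 thymus 3 and at 0.743 to 3.09 CPM in the others, and Amotl2 at 29.36 and 12.97 CPM in LN3 thymus 1 and 2 but 0.534 CPM in LN3 thymus 3. Cyr61 and Ctgf, widely used targets of YAP and TEAD, were at no more than 0.496 CPM in any of the 6 libraries and were not tested, and Ankrd1 had no count.

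Among sex-linked genes, LN3 thymus 1 held the Y-linked genes Ddx3y, Kdm5d and Uty at 81.8, 69.0 and 35.6 CPM and Eif2s3y at 0.881 CPM.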
